A study of Sus scrofa with 4 samples.

Results

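The genes described here drive cell division, and they were read in the spleen of pigs with and without a disrupted IL2RG gene. The genes named for this purpose were CDC20, CCNB1, CDK1, TOP2A, BIRC5, AURKA and MKI67, and a probe belonged to one of them when the array design gave it a pig RefSeq transcript of that gene. By this rule 6 of the 7 genes had a probe, with 9 probes in all, out of 3020 named genes and 43603 probes on the array. MKI67, which encodes the Ki-67 proliferation antigen, had no named probe and was not analysed here. NIFK, which lists MKI67 among its older names in the reference table, was not used in its place. All 9 probes were well above background and below saturation on every array, so no value of a member below is a bound.

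Spleen RNA came from wild-type (WT) Minnesota miniature swine on 3 arrays and from the IL2RG knockout (KO), labelled IL2RG +/-, on 1 array. IL2RG is X-linked and encodes the common gamma chain, the receptor subunit that IL-2, IL-7, IL-15 and related cytokines share. The KO pigs were cloned by somatic cell nuclear transfer from cell colonies cut with TALEN nucleases, so a KO animal derives from an edited donor cell. The labels give no age, sex or treatment, and nothing in them says that the 3 WT arrays came from 3 animals. The p-values therefore rest only on the spread between these WT arrays, and KO, with 1 array, is assumed to vary like them. WT 1 and KO were hybridised on 1 slide, and WT 2 and WT 3 on another.

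A dividing cell makes these messages in bulk only late in its cycle. Transcription of most of them is held down in resting and G1 cells and rises towards G2 and mitosis, so their summed level in a tissue is commonly read as a sign of how many cells are cycling. CDK1 pairs with cyclin B1, the product of CCNB1, and the active pair starts mitosis. AURKA is a kinase of the centrosome and spindle poles, and TOP2A untangles sister chromatids. BIRC5, also called survivin, belongs to the chromosomal passenger complex and to the inhibitor of apoptosis family. CDC20 switches on the anaphase-promoting complex, which marks cyclin B for destruction and ends mitosis. In spleen, dividing cells include B cells of the germinal centres, activated T cells and, in young animals, blood cell precursors of the red pulp.

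All 6 genes were lowest in KO, below each of the 3 WT arrays, as were 34.8% of all tested probes. At least 2-fold below the WT mean were 5 of the 6, against 13.3% of tested probes. The differences from the WT mean ran from -1.87 for CDC20 to -0.999 for AURKA on the log2 scale, with a median of -1.47 over the 6 genes against -0.11 over the 33464 probes tested. None of the 9 probes passed limma at an adjusted p of 0.05. No probe on the array did so with a 2-fold difference (0% of those tested), while 3171 probes had an unadjusted p under 0.05 with that size. WT 1 lay below WT 2 and WT 3 for every member, so part of each difference also separated the slides. Levels are given below as log2 processed signal after subtracting each array's 75th percentile, and 1 unit is 2-fold. They compare arrays for 1 probe and do not rank genes against each other. In whole spleen, fewer dividing cells and less of these messages per cell cannot be told apart.

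CDC20 showed the largest difference among the 6 genes. Its level was 0.15 in WT 1, 0.74 in WT 2 and 0.88 in WT 3, and -1.28 in KO. The processed signals behind these levels were 711, 1367 and 1510 in WT and 266 in KO. The groups did not overlap, and KO differed by -1.43 even from the lowest WT array. Against the WT mean of 0.59 ± 0.39 (SD, n = 3), KO was 3.66-fold lower (log2 difference -1.87, standard error 0.41, limma adjusted p = 0.389). Before adjustment the limma p was 0.0109, the smallest of the members. Of all tested probes, 3.64% lay as far below the WT mean or farther.

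CCNB1 and CDK1, the cyclin and the kinase that together start mitosis, followed. CCNB1 stood at 2.62, 3.54 and 3.65 in WT 1, WT 2 and WT 3, and at 1.54 in KO. KO was 3.31-fold below the WT mean of 3.27 ± 0.57 (SD, n = 3; log2 difference -1.73, standard error 0.53, limma adjusted p = 0.430). WT 1 sat between KO and the other WT arrays: KO differed from it by -1.08, and it differed from the mean of the others by -0.98. CDK1 stood at 3.06, 4.05 and 4.22 in WT and at 2.23 in KO on its brighter probe. KO was 2.93-fold below the WT mean of 3.78 ± 0.63 (SD, n = 3; log2 difference -1.55, standard error 0.58, limma adjusted p = 0.453). The other CDK1 probe ran in parallel, at 2.88, 3.77 and 4.08 in WT and 2.09 in KO, with -1.48 between the groups. For CDK1 the gap between WT 1 and the other WT arrays (-1.07) was wider than the gap between KO and WT 1 (-0.83).

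TOP2A took the same order of arrays. Its level was 1.84, 2.66 and 2.78 in WT and 1.04 in KO. KO was 2.62-fold below the WT mean of 2.43 ± 0.51 (SD, n = 3; log2 difference -1.39, standard error 0.50, limma adjusted p = 0.444). As with CDK1, WT 1 differed more from WT 2 and WT 3 (-0.88) than KO differed from WT 1 (-0.80).

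BIRC5 varied least among the WT arrays. It stood at 4.25, 4.59 and 4.45 in WT and at 3.35 in KO. KO was 2.12-fold below the WT mean of 4.43 ± 0.17 (SD, n = 3; log2 difference -1.09, standard error 0.30, limma adjusted p = 0.413). The other BIRC5 probe gave 4.02, 4.50 and 4.36 in WT and 3.04 in KO, with -1.25 between the groups. Here WT 1 differed from the mean of the other WT arrays by only -0.27, and 83.1% of the difference from the WT mean was also present against WT 1 alone.

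AURKA had the smallest difference and the weakest separation. Its level was -1.01 in WT 1, -0.07 in WT 2 and -0.0012 in WT 3, and -1.36 in KO. KO was 1.999-fold below the WT mean of -0.36 ± 0.56 (SD, n = 3; log2 difference -0.999, standard error 0.53, limma adjusted p = 0.546), just short of the 2-fold line. The other AURKA probe gave -1.36, -0.62 and -0.62 in WT and -1.93 in KO, and the gap of -1.06 passed that line. KO differed from WT 1 by only -0.35 on the brighter probe, and 35.2% of the difference from the WT mean was also present against WT 1.

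**Figure D1:**
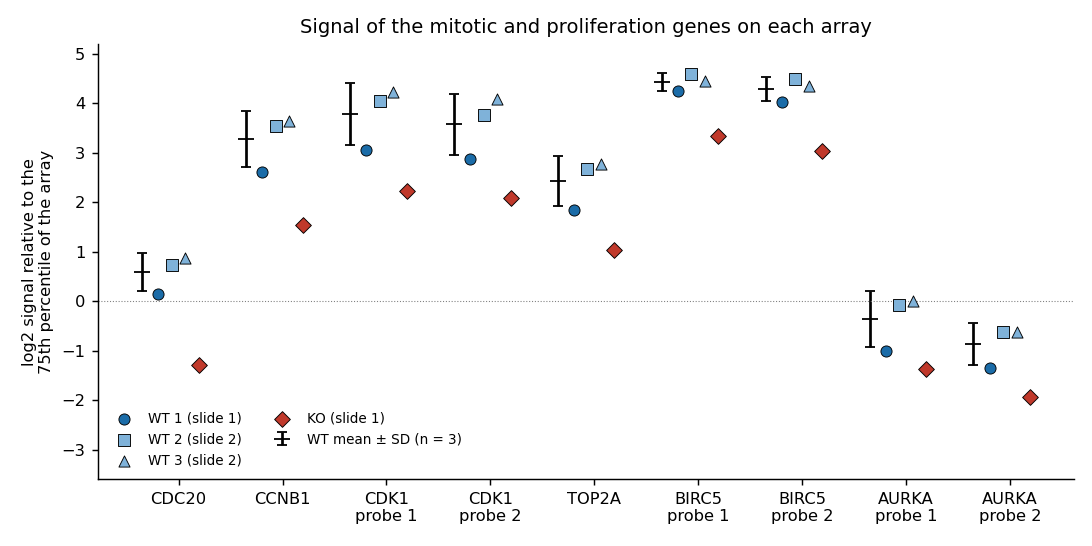
Log2 signal minus the array's 75th percentile (vertical axis) for the 9 probes of the 6 genes (horizontal axis), with 1 point per array and the WT mean ± SD (n = 3) as a black bar. On every probe the KO diamond is the lowest point and the WT 1 circle is the next lowest, with WT 2 and WT 3 close together above it.

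The counts over the members read as follows against the whole array. The members' direction was known from earlier results of these data, so these counts describe the members and are not a test. At least 2-fold lower in KO than the WT mean were 5 of the 6 genes and 8 of the 9 probes, against 13.3% of the 33464 probes tested and 11.9% of the 2742 named genes taken by their brightest probe. Dim probes spread more widely, so the members were also set beside probes of like signal, a comparison added after the values were seen. CCNB1, CDK1, TOP2A and BIRC5 belong to the brightest of 4 equal classes of 8366 tested probes, where 3.43% were at least 2-fold lower in KO, and these genes were 4 of 4. CDC20 and AURKA belong to the next class, where 7.39% were, and CDC20 met the line while AURKA did not. KO lay below all WT arrays for 6 of 6 genes, against 34.8% of tested probes.

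Without adjustment for the number of probes, 4 of the 6 genes (CDC20, CCNB1, TOP2A and BIRC5) had a limma p under 0.05 with a 2-fold lower level, against 4.98% of tested probes. The adjusted values of the 9 probes lay between 0.389 and 0.546. The methods' t-test gave an unadjusted p under 0.05 for both BIRC5 probes and no other member (exact permutation of 1 array against 3 cannot go below p = 0.25), and after Benjamini-Hochberg adjustment its p-values were 0.532 to 0.684. With 1 KO array, the spread among KO spleens is not known from these data.

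**Figure D2:**
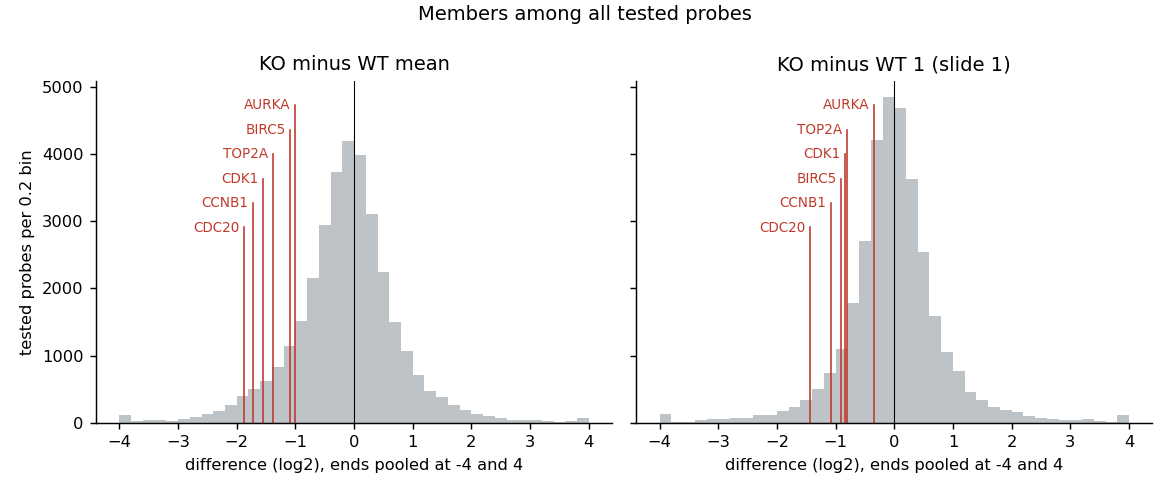
Number of tested probes (vertical axis, bins of 0.2) by their log2 difference between KO and the WT mean (left) and between KO and WT 1 on the shared slide (right), with the brightest probe of each of the 6 genes as a red line. All 6 lines are left of zero in both panels, from -1.87 to -0.999 on the left and from -1.43 to -0.35 on the right.

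KO shared its slide with WT 1, and this pair gives the one comparison within a slide. All 6 genes were lower in KO than in WT 1, against 51.8% of tested probes, with a median of -0.87 where all tested probes had -0.03. CDC20, 2.70-fold lower, and CCNB1, 2.11-fold lower, were at least 2-fold lower, 2 of 6 genes against 8.08% of tested probes. BIRC5 (-0.90), CDK1 (-0.83), TOP2A (-0.80) and AURKA (-0.35) did not reach 2-fold within the slide. With slide as a block, limma gives the same differences. Its error then rests on WT 2 against WT 3 and on limma's average over all probes. That error does not measure the spread between KO and WT 1, so no p-value is given for this pair.

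Among the WT arrays the members varied together. WT 1 was below the mean of WT 2 and WT 3 for all 6 genes, from -0.27 (BIRC5) to -1.07 (CDK1), with a median of -0.93 against -0.04 over all tested probes. Only CDK1 reached 2-fold on this comparison, 1 of 6 genes against 14.4% of tested probes. WT 2 and WT 3, which shared a slide, differed by a median of 0.11, and BIRC5 alone was lower in WT 3. So the step from WT 2 and WT 3 to WT 1 was larger than the step from WT 1 to KO in CDK1, TOP2A and AURKA, and smaller in CDC20, CCNB1 and BIRC5. The slide, the scan and any difference between the WT spleens cannot be told apart here, since WT 1 was the only WT array on its slide.

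**Figure D3:**
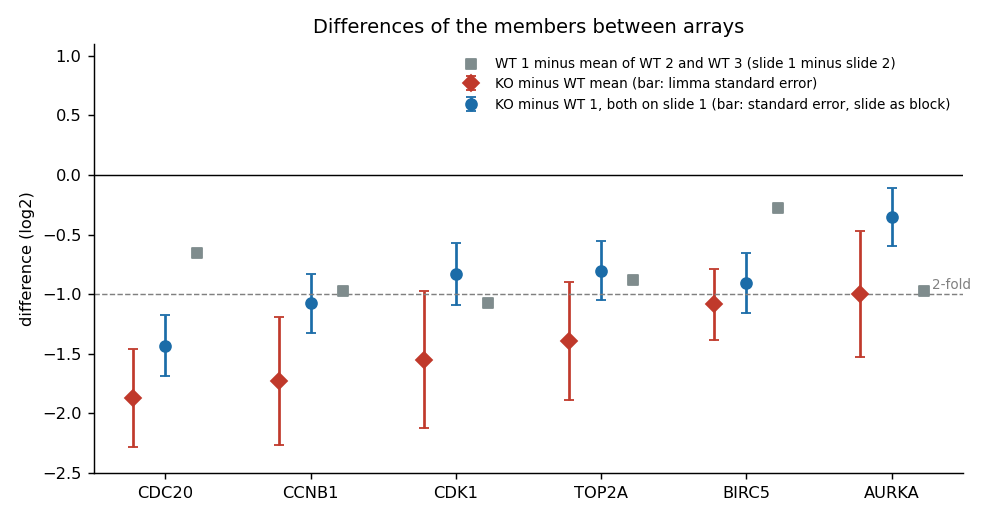
Log2 differences (vertical axis) for the brightest probe of each gene (horizontal axis): KO minus the WT mean (red diamonds, limma standard error), KO minus WT 1 on the shared slide (blue circles, standard error with slide as a block) and WT 1 minus the mean of WT 2 and WT 3 (grey squares, no error). All points are below zero, and only CDC20 and CCNB1 pass the dashed 2-fold line within the slide. The blue bars rest on WT 2 against WT 3 and limma's average over probes, not on the spread between KO and WT 1.

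The profile over the 4 arrays was much the same in all 6 genes. Centred on each gene's own mean, the average member stood at -0.18 in WT 1, 0.59 in WT 2, 0.67 in WT 3 and -1.08 in KO. TOP2A came nearest to this average (root mean square distance 0.04 on the log2 scale) and BIRC5 lay farthest from it (0.28). Among 2426 other named genes whose brightest probe was well above background on all arrays, the 5 nearest profiles were those of FAM110D (0.01), FLRT3 (0.06), PCLAF (0.06), CDKN3 (0.11) and RAD54L (0.11). PCLAF encodes a binding partner of the replication clamp PCNA, CDKN3 a phosphatase that acts on CDK proteins, and RAD54L a helper of recombination repair. The nearest, FAM110D and FLRT3, are on none of the cell cycle lists used below, and of the 5 only CDKN3 is. FAM110D stood at -3.94, -3.19 and -3.12 in WT and -4.88 in KO, and FLRT3 at -2.72, -1.87, -1.72 and -3.50. Likeness over 4 arrays is a description of these arrays only.

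Other genes of the cell cycle were taken from 9 lists with 231 genes, of which 41 had a named probe that was tested. Of these 41 genes, 33 had a negative difference and 29 lay below all WT arrays, 9 were at least 2-fold lower and 1 at least 2-fold higher. Over all tested probes 34.8% lay below all WT arrays and 13.3% were at least 2-fold lower. The median of the 41 genes was -0.56 (-0.11 over all tested probes), and none passed limma, with 7 at an unadjusted p under 0.05 (6 of them lower). Against WT 1 alone, 35 of the 41 were lower in KO, with a median of -0.43, and 5 were at least 2-fold lower, where all tested probes had 51.8% lower and 8.08% at least 2-fold lower.

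Mitotic entry was the list with the lowest median, -1.03 over its 6 measured genes of 20, and -0.44 within the shared slide. MYBL2, a transcription factor of the complex that switches on late cell cycle genes, had the largest difference of any listed cell cycle gene. It stood at 4.89, 5.83 and 6.05 in WT and 3.52 in KO (difference -2.07, limma adjusted p = 0.413), and its 4 probes ranged from -2.11 to -1.74. PKMYT1, a kinase that holds CDK1 inactive, had a difference of -1.96 (limma adjusted p = 0.415), and the CDK1-activating phosphatase CDC25C one of -1.12. CKS1B, a small partner of CDK proteins, had -0.94, short of 2-fold. MYBL2 (-1.36) and PKMYT1 (-1.28) were also over 2-fold lower than in WT 1, whereas CDC25C was at -0.44. LIN52, a subunit of the same complex as MYBL2, was the exception of the list, above all WT arrays at +0.51.

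The genes of the kinetochore, spindle and cytokinesis differed among themselves in the step between the slides. The 4 measured genes of 47 had a median of -0.96 against the WT mean and -0.92 against WT 1, while WT 1 minus the mean of WT 2 and WT 3 had a median of 0.19. CENPM, a centromere protein, stood at 1.43, 1.80 and 0.84 in WT and at -0.10 in KO (difference -1.45, limma adjusted p = 0.432), and had -1.53 against WT 1. PBK, a mitotic kinase, had -1.22, and -0.50 against WT 1, and it alone of the 4 was lower in WT 1 than in WT 2 and WT 3 (-1.07). STMN1, a microtubule destabiliser, had -0.70, and -0.88 against WT 1. AURKB, the kinase partner of BIRC5 in the passenger complex, had -0.61 on its brightest probe and -1.66 on the lowest of 3 probes, which therefore disagree on the 2-fold line. All 4 were below every WT array.

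For the anaphase-promoting complex, which CDC20 activates, 2 of 26 listed genes were measured and neither was 2-fold lower. FZR1, the other activator of the complex, had -0.77 but lay within the WT range, 0.06 above WT 1. CDC23, a core subunit, had -0.49 and lay below all WT arrays. Of the chromosome structure list, 3 of 18 were measured and none was 2-fold lower on its brightest probe. H2AFZ, a histone variant, had -0.74 and lay below all WT arrays, while HMGB2 had -0.44 on its brightest probe and -1.46 on another. TOP2B, the paralogue of TOP2A that resting cells also express, had -0.12 and lay within the WT range, with -0.38 against WT 1.

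DNA replication was represented by 6 of 55 listed genes, with a median of -0.62 and -0.46 within the shared slide. ASF1B, a histone chaperone, had -1.54 (limma adjusted p = 0.466) and was the only one at least 2-fold lower. The polymerase delta subunit POLD2 had -0.91, and the primase subunits PRIM2 and PRIM1 had -0.68 and -0.56. PRIM1 was almost the same on the WT arrays (1.38, 1.33 and 1.36) and stood at 0.80 in KO. The DNA damage list had 6 measured genes of 16, all below every WT array, with a median of -0.64, and -0.43 against WT 1. MDC1, a checkpoint adaptor, was the only one at least 2-fold lower (-1.19), while the helicase BLM had -0.75 and the checkpoint kinase CHEK2 -0.53.

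The cyclins and kinases that act before S phase stood closer to WT. Of 24 listed genes, 4 were measured, none was 2-fold lower or higher, and their median was -0.17, and -0.08 against WT 1. CDK4 had -0.34 and MYC -0.28, both below all WT arrays, and the cyclins CCND2 (0.10) and CCND3 (-0.06) lay within the WT range. Whether this list differs from the mitotic lists was not tested.

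Inhibitors of the cycle had no common direction against the WT mean. Of 17 listed genes, 8 were tested, with a median of 0.05, 2 at least 2-fold lower and 1 at least 2-fold higher. Against WT 1, 7 of the 8 were lower in KO, all but TOB1, with a median of -0.26. CDKN3, whose message is itself known to rise in mitosis, had -1.57 (limma adjusted p = 0.441), and the stress gene GADD45A had -1.37 (limma adjusted p = 0.411). GADD45A also differed from WT 1 by -1.70. TOB1, an antiproliferative gene of lymphocytes, stood at 3.35, 2.89 and 2.87 in WT and at 4.08 in KO (difference 1.04, limma adjusted p = 0.433). BTG2, a relative of TOB1, had -0.51 against the WT mean and -1.22 against WT 1. Of the other anti-apoptotic genes, 2 of 8 were measured: BCL2L1 had -0.98, below all WT arrays, and XIAP, like BIRC5 a member of the inhibitor of apoptosis family, was above all WT arrays at +0.52.

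**Figure D4:**
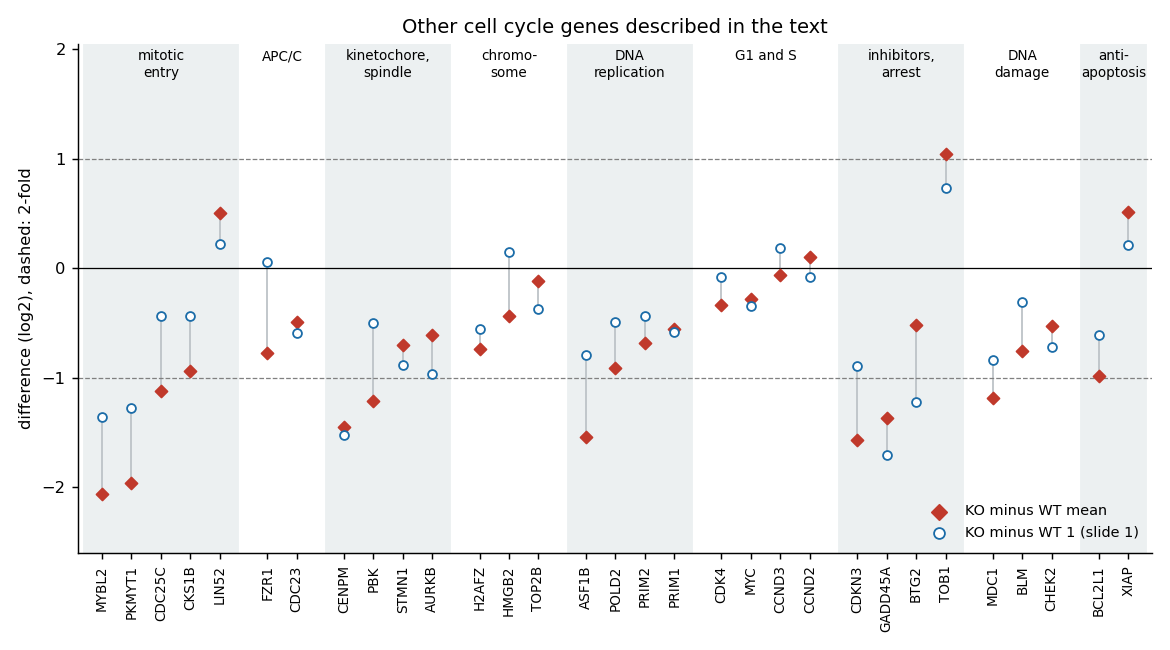
Log2 difference (vertical axis) of the listed cell cycle genes described above (horizontal axis, grouped by list), as KO minus the WT mean (red diamonds) and KO minus WT 1 (blue circles), with dashed lines at 2-fold. Genes of mitotic entry, kinetochore and DNA damage lie mostly below zero on both measures, the genes of G1 and S lie near zero, and TOB1 is the only one above the upper line.

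Markers of several cell types also differed between the arrays, and their part in the members' differences was not tested. Of 116 listed marker genes, 51 were measured and 50 were well above background on all arrays. No defining marker of B cells, macrophages or erythroid cells was at background on any array. Lymphoid, macrophage and stromal markers of spleen were all among those detected.

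The B cell markers separated KO from every WT array. MS4A1 (CD20) stood at 1.37, 0.37 and 1.00 in WT and at -4.002 in the KO array (difference -4.92, limma adjusted p = 0.285). CD79A, a chain of the B cell receptor, had -4.11, whereas CD40 (+1.66) and CD72 (+1.49), which macrophages and dendritic cells can also express, were above all WT arrays. Because CD40 is bright, the summed level of the 5 measured markers of 14 was 30.2 to 39 times the 75th percentile in WT and 96 times in KO. MS4A1 and CD79A were higher in WT 1 than in the mean of WT 2 and WT 3, by 0.69 and 0.88, so they did not follow the members among the WT arrays. Of 9 markers of germinal centre B cells, 3 were measured and none lay below all WT arrays. Their median of -0.87 is that of GCSAM, within the WT range (-2.84, -2.52 and -4.18 in WT and -4.05 in KO). FAS, a death receptor that many activated cells carry, was above all WT arrays at +1.72.

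The erythroid markers separated WT 2 and WT 3 from both arrays of the other slide. KLF1, the red cell transcription factor, stood at -4.68 in WT 1, 4.05 in WT 2, 4.38 in WT 3 and -3.17 in KO. TFRC, the transferrin receptor that dividing cells also carry, stood at -2.65, -0.33 and 0.05 in WT and at -3.70 in KO, in the same order as the members. EPOR stood at 0.24, 2.66 and 3.59 in WT and at -0.17 in KO, also in that order, and HBE1 at -1.36, 2.80, 2.52 and 0.67. The summed level of the 4 measured markers of 15 was 1.77 in WT 1, 30.7 in WT 2, 39.6 in WT 3 and 2.67 in KO. Their median difference was -2.52 against the WT mean and +0.55 against WT 1, where the members' was -0.87. Within the shared slide the members were thus lower in KO while KLF1 and HBE1 were higher and EPOR and TFRC lower.

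Most macrophage markers went the opposite way to the members. All 8 measured macrophage markers of 12 were above the WT mean, with a median of 2.49, and CD163, MRC1 and FCGR1A had 3.17, 3.26 and 3.90. At least 2-fold higher were 7 of the 8, against 2590 of the 33464 probes tested. Above all WT arrays lay 6 of the 8, while VSIG4 and SIGLEC1 lay within the WT range. VSIG4 is placed there by its brightest probe, and its 5 probes had differences from 0.41 to 5.36. The summed level of the 8 was 18.9 to 181 in WT and 228 in KO. It is mostly that of CD163 (3.46, 4.81 and 4.65 in WT and 7.48 in KO) and VSIG4 (-0.89, 7.20 and 6.37 in WT and 4.64 in KO). The 6 measured megakaryocyte and platelet markers of 9 had a median of -1.84 against the WT mean, 0.04 against WT 1 and -2.47 for WT 1 against the mean of WT 2 and WT 3. Their summed level, 626 to 742 in WT and 779 in KO, ran the other way and is mostly that of 1 bright probe, of the integrin gene ITGB3 (9.52, 9.24 and 9.17 in WT and 9.60 in KO), whose other probe had a difference of -1.05. VWF (-2.76), ITGA2B (-2.14) and GP9 (-1.29) lay below all WT arrays, ITGA2B with only -0.00086 against WT 1. The medians against the WT mean were 0.16 for T cells (8 of 14 markers measured), 0.82 for NK cells (5 of 10), 0.47 for granulocytes (5 of 11) and -0.26 for stroma and endothelium (6 of 12). Against WT 1 these medians were -0.21, -0.65, 3.17 and -0.19, so those of T and NK cells took the opposite sign. Of the 8 T cell markers, 3 lay above all WT arrays (CD8A 1.78, CD4 1.74 and CD2 1.59), 1 below them (CD247, -1.22) and 4 within. Against WT 1, CD8A, CD4 and CD2 had 0.50, 1.27 and 0.67, and CD247 had -1.08. The largest differences outside the WT range were 1.72, 1.25 and -1.16 for FCGR3A, NKG7 and NCR1 of NK cells. For CCL21, CDH5 and CXCL12 of stroma and endothelium they were -2.18, -0.97 and -0.49. Of the granulocyte markers only MMP9 (1.06) lay outside that range, while LTF had -1.57 within it. XBP1, the only measured plasma cell marker of 10, had -0.13 against the WT mean and -1.65 against WT 1. The targeted gene IL2RG stood at -0.65, -1.50 and -1.49 in WT and at -1.98 in KO, a difference of -0.77 on its brighter probe and -2.12 on the other.

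**Figure D5:**
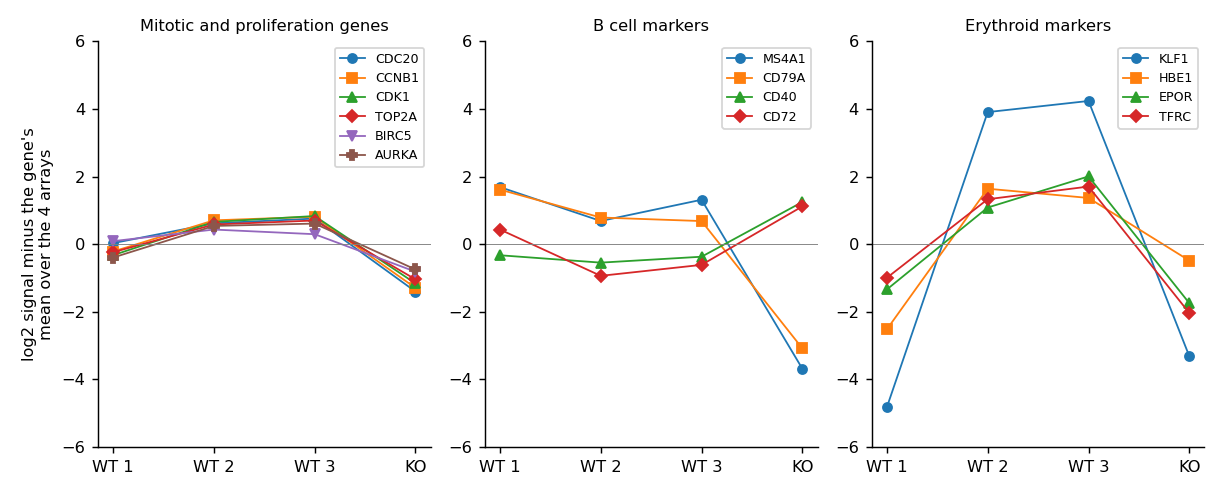
Log2 signal minus each gene's mean over the 4 arrays (vertical axis) by array (horizontal axis) for the 6 mitotic and proliferation genes, 4 of the 5 measured B cell markers and the 4 measured erythroid markers. The members step down from WT 2 and WT 3 to WT 1 and again to KO, MS4A1 and CD79A are low in KO alone, and the erythroid markers are low in both WT 1 and KO compared with WT 2 and WT 3.

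The quality measures of the arrays followed the slide. Spots well above background were 66.1% for WT 1 and 68.3% for KO, and 71.0% for WT 2 and 72.7% for WT 3. The 75th percentile of the signal was 640 for WT 1 and 646 for KO, and 816 for WT 2 and 820 for WT 3. No spot was saturated. The scanner software put the error of each member's spot at 10% to 10.1% of its signal whatever the level, so this value does not separate the arrays. Over tested probes the arrays correlated at r = 0.976 for the WT pair on 1 slide, 0.963 for KO with WT 1, and 0.943 to 0.949 across slides. Other ways of scaling the arrays shifted all probes, so the members are also given relative to the median of all probes: -1.36 for their median (range -1.76 to -0.89) under the 75th percentile, and -1.58 under quantile normalisation. Under the 75th percentile 63.3% of the probes past 2-fold were lower in KO, and under other scalings 42.9% to 70.9%.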

How the data were processed

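Total RNA of WT spleen (3 arrays) and KO spleen (1 array) was labelled with Cy3 and hybridised to Agilent porcine 4x44K arrays. The intensity values used are the processed signals that the authors deposited, which the scanner software (Agilent Feature Extraction, version 11.0.1.1 in the submitters' processing notes) had corrected for background. The deposited series table holds log2 values of 27421 probes that matched quantile-normalised processed signals (median 8.62 in each column), and served as an alternative. Here marked spots were left out (28 probes lost), spots of a probe were averaged, and log2 signals were shifted by each array's 75th percentile. A probe entered the test if any array had it well above background. Differences were fitted in R (version 4.3.3) by limma (version 3.58.1; eBayes on the lmFit model, two-sided, Benjamini-Hochberg adjustment over 33464 probes, 2 residual degrees of freedom). The fit was tested on simulated data. Genes were named through RefSeq accessions (6686 probes, 15.3%) and stand by their brightest probe. Transcripts, not genome positions, identify the probes, and no genome build is given in the sources used here.

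The members and lists were chosen with earlier results of these data known, among them the direction of the members. Named are all members, in each list the few genes with the largest differences outside the WT range (up to 4 for cell cycle lists, 3 for cell types), IL2RG, and the 5 nearest profiles. Where too few genes of a list lay outside that range, those with the largest differences were taken. LIN52, TOP2B, CCND2, CCND3, CD40, CD72, GCSAM, CD247, VSIG4, SIGLEC1, KLF1, HBE1 and ITGB3 are named besides, chosen after their values were seen. Alternatives covered scaling, background correction (normexp on median signals, since mean signals are not in the files), filters, marked spots, probe choice, slide as a block and each WT array left out. The small number of arrays limits the precision. Results of a few listed genes are not reported here.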

Additional observations from a re-analysis of the deposited data

How the results depend on the processing

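Over 13 alternatives all 78 differences of the 6 genes stayed negative, from -2.09 to -0.35, and none had an adjusted p under 0.05 in limma. The smallest adjusted p-values came without WT 1. There KO and the remaining WT arrays lie on different slides, so group and slide cannot be told apart. Many signs of the 78 differences could not have changed. A filter on dim probes leaves a gene's difference as it is. With KO below every WT array, leaving out a WT array or using slide as a block keeps the sign negative. The 78 differences are therefore not separate checks. With slide as a block the members' median moved to -0.87, the members at least 2-fold lower to 2, the listed cell cycle genes at least 2-fold lower from 9 to 5, and the tested probes at least 2-fold lower from 13.3% to 8.08%. That share was 3.18% after normexp and quantile normalisation, 6.36% in the deposited table and 8.19% where a probe had to be well above background on each array. The probes past the limma threshold, 0 as reported, were 4 after normexp and quantile normalisation together and 6 with an eBayes trend. By the methods' t-test 1327 probes were counted without adjustment. With Benjamini-Hochberg adjustment that count was 0, and with Bonferroni adjustment, the one the paper names, it was also 0. Leaving out 1 WT array gave medians of -1.79 to -1.27, 5 to 6 members at least 2-fold lower, 11.03% to 17.9% of probes, and 8 to 15 listed genes, the 15 without WT 1. AURKA passed 2-fold without WT 1, with its probes averaged, with marked spots kept and with the percentile over probes detected on all arrays. With a median shift BIRC5 and AURKA missed it, leaving 4. No paired analysis was possible because the groups share fewer than 2 replicate numbers, and the labels give KO none; the slide block pairs KO with WT 1 alone. The causes were not tested.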
